A study of Mus musculus with 8 samples.

Results

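The genes described here are the molecular chaperones of mouse embryonic stem cells: heat shock proteins, J proteins (the DnaJ family), chaperonins and the protein disulfide isomerases named Pdia. Members were taken by symbol, as genes whose names start with Hspa, Hspb, Hspd, Hspe, Hsph, Hsp90, Dnaja, Dnajb, Dnajc or Pdia, or with Cct and a digit. Of 105 such symbols in the table of 55292 features, 16 pseudogene symbols and 7 genes with too few reads (10 or more in fewer than 2 libraries) were left out. That left 82 members. The rule uses no difference between groups. It does use a minimum of 10 reads in at least 2 libraries, which 1 member, Hspb7, met only through the libraries where it was high. Hspa1a and Dnajb3 reached 10 reads in only 1 library outside those labelled as transfected with Smad7. They met the minimum only with the latter, where they too were high. The changes of Hspb7, Hspa1a and Dnajb3 in those libraries are descriptions only.

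The cells were E14 embryonic stem cells of strain 129/Ola, grown on gelatin in serum with leukaemia inhibitory factor, and all groups shared this line and medium. Poly(A)-selected RNA was sequenced from untreated wild-type E14, from E14 lacking the long noncoding RNA lncSmad7 (genotype lncSmad7-/-), and from cells of that knockout whose labels name a transfection with Smad7 and 24 h. Smad7 restrains signalling by receptors of the TGF-beta superfamily. Each group has 2 libraries, labelled biological replicates. The last group is called the Smad7-labelled libraries below, and a further labelled group, the knockout transfected with lncSmad7, was not analysed here. The labels do not give the number of knockout clones. No mock-transfected group was analysed, so the transfection itself and Smad7 cannot be told apart in the second comparison. The labels do not say whether replicates were separate cultures, so p-values reflect how far these libraries vary, and that may be technical.

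Chaperones bind unfolded or partly folded proteins and keep them from aggregating. Hsp70 proteins cycle on and off their clients with ATP: J proteins deliver the client and speed ATP hydrolysis, and nucleotide exchange factors such as the Hsp110 proteins reset the cycle. Hsp90 receives clients from Hsp70 through the adaptor Stip1 and completes the folding of kinases and receptors. Small heat shock proteins hold unfolded protein without ATP, and chaperonins (the Cct ring in the cytosol, Hspd1 with its lid Hspe1 in mitochondria) enclose it in a chamber. Heat shock factor 1 (Hsf1) induces many of the cytosolic genes, and Atf6 and Xbp1 induce those of the endoplasmic reticulum. Pluripotent stem cells are known for high levels of the cytosolic chaperonin.

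The binding letters of these regulators are shown first, because the paragraphs on single members refer to them. Promoters came from RefSeq (build GRCm38.p6) and matched 67 of the 82 members, with 1 start per gene, and the 250 bases before the start were searched on both strands. The endoplasmic reticulum stress element, CCAAT and CCACG with 9 bases of any kind between them, to which NF-Y and Atf6 bind, was found in 4 of 67 member promoters (5.97%) and in 33 of 27025 of all promoters (0.122%). Its matches lie in Hspa5 at chr2:34772020-34772048 (forward strand), in Hsp90b1 at chr10:86705633-86705661 (reverse strand) and at chr10:86705528-86705556 (reverse strand), in Dnajc3 at chr14:118937822-118937850 (forward strand) and in Pdia6 at chr12:17266486-17266514 (forward strand). Each is printed 5′ to 3′ on the gene's strand with the element in capitals, and in the second match of Hsp90b1 the element reads on the other strand.
Hspa5: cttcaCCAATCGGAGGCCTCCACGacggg
Hsp90b1 first: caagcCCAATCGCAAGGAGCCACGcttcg
Hsp90b1 second: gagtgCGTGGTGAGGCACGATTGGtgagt
Dnajc3: cacaaCCAATCAGCGCCAACCACGacccg
Pdia6: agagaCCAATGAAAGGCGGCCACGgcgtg

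A heat shock element of 3 alternating units, GAA, TTC and GAA with 2 bases of any kind between each, on either strand, was found in 2 of 67 member promoters (2.99%) and in 108 of 27025 of all promoters (0.400%); the members are Hspe1 and Dnajb6. Of the shorter inverted pairs of the unit, GAANNTTC was found in 8 of 67 member promoters (11.9%) and in 1833 of 27025 of all promoters (6.78%), and TTCNNGAA in 5 of 67 member promoters (7.46%) and in 1920 of 27025 of all promoters (7.10%). Both pairs occur inside the 3-unit element, so these counts overlap. The CCAAT box alone, which is also part of the endoplasmic reticulum element, was found in 25 of 67 member promoters (37.3%) and in 9314 of 27025 of all promoters (34.5%). A match is a description of letters, not a binding site. The 4 stretches below come from stress-inducible members described later and are shown for their matches, in capitals. They include the overlapping elements of Hspe1 at chr1:55088054-55088081 (forward strand) and the pair in Hsph1 at chr5:149636352-149636379 (reverse strand). The others are the bases just before the start of Hspa1a at chr17:34972157-34972281 (reverse strand) and of Hspb1 at chr5:135887794-135887918 (forward strand). In Hspe1 the 3-unit element matches on both strands, from −89 to −77 and from −84 to −72 relative to the start. Its capitals therefore run longer than 1 element.
Hspe1: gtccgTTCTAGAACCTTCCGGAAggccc
Hsph1: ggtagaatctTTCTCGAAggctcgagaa
Hspa1a: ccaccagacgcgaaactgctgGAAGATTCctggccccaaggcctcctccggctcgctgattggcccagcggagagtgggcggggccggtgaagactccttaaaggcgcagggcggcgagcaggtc
Hspb1: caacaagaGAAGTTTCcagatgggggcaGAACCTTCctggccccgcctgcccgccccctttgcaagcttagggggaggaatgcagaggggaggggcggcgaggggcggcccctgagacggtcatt

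Total counts per library lay between 13392941 and 20209760, and the TMM scaling factors were lowest in wild-type cells (0.881 and 0.886) and highest in the Smad7-labelled libraries (1.16 and 1.16). Reads of lncSmad7 were 237 and 221 in wild-type cells, 140 and 105 in knockout cells, then 167 and 207 in the Smad7-labelled libraries. They were fewer in knockout cells but not absent. The CPM values (counts scaled to a common TMM-adjusted library size) of Smad7 were 97.6 and 97.7 in wild-type cells, 75.5 and 69.6 in knockout cells, then 93.8 and 99.4 in the Smad7-labelled libraries. Smad7 was lower in knockout cells (log2 fold −0.43) and higher after (log2 fold 0.41), and its difference from wild type did not pass in the Smad7-labelled libraries (log2 fold −0.014). The reads of lncSmad7 also rose there against the knockout (log2 fold 0.79 ± 0.13 SE, adjusted p = 9.3e-09). These values leave the identity of the transfected libraries in doubt, so they are named by their label only, and the second comparison shows how that label differs from the knockout. All 7 stem cell markers were tested: 6 rose in knockout cells and 1 fell, and 7 of 7 fell in the Smad7-labelled libraries against the knockout. They summed to 4275 and 4348 CPM in wild-type cells, 5529 and 5625 in knockout cells and 3286 and 3299.7 in the Smad7-labelled libraries. Of 9 fibroblast markers 4 had enough reads to test: 3 rose in knockout cells and 4 of 4 in the Smad7-labelled libraries against them, Col1a1 among these (log2 fold 1.39). The 9 summed to 13.4 and 12.9 CPM in wild-type cells, 23.0 and 22.7 in knockout cells and 36.6 and 36.7 in the Smad7-labelled libraries, while another fibroblast collagen, Col3a1, had at most 2 reads in any library. The 8 endoderm markers summed to 57.5 and 59.2 CPM in wild-type cells, 7.39 and 6.36 in knockout cells and 9.42 and 9.74 in the Smad7-labelled libraries, with Afp and Ttr at 0 to 2 reads. The part of such cells, or of a change in cell state, in the results below was not tested, and fewer cells of a type and less RNA per cell cannot be told apart in bulk RNA.

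Most abundant chaperones fell and the scarce ones went both ways. Members took 3.13% and 3.12% of all reads in wild-type cells, 2.83% and 2.80% in knockout cells and 1.89% and 1.89% in the Smad7-labelled libraries, so the groups did not overlap and the last was the lowest. In edgeR's quasi-likelihood test, with Benjamini-Hochberg adjusted p-values over all 17342 genes tested and a threshold of 0.05 (used for every adjusted p below), 21 members rose and 36 fell in knockout cells against wild type, while 25 did not pass. Of all genes tested, 34.5% were called higher and 33.3% lower in that comparison. In the Smad7-labelled libraries against the knockout 19 members rose (18 without Hspb7) and 50 fell, where 37.8% of all genes were higher and 36.8% lower. Against wild type the Smad7-labelled libraries had 24 members higher (23 without Hspb7) and 51 lower, where 43.1% of all genes were higher and 38.8% lower. Hspa1a and Dnajb3 also met the read minimum only with the Smad7-labelled libraries. They are among the members counted as higher in these libraries, here and below. With library size scaling 33 members were called higher and 29 lower in the first comparison, and with DESeq2 or a 1.2-fold minimum 12 were higher. The share of all calls that were higher also moved with library size scaling, from 50.9%, 50.7% and 52.6% to 61.7%, 65.7% and 68.3% in the 3 comparisons. So many genes passed that a call alone sets no member apart. These 3 comparisons share groups, the first 2 share the knockout, and their counts are not independent of each other.

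The median log2 fold change of the members was −0.095 in knockout cells against wild type, −0.33 in the Smad7-labelled libraries against the knockout and −0.48 in them against wild type. Over all genes tested it was 0.024, 0.039 and 0.086. Scaling by library size alone moved the medians of all genes to 0.17, 0.29 and 0.48 and those of the members to 0.049, −0.081 and −0.091, so the members' sign in the first comparison flips. The members' median minus that of all genes was −0.12, −0.37 and −0.57 with TMM and −0.12, −0.37 and −0.57 with library size. At least 2-fold changes that passed the test numbered 3 up and 2 down in the first comparison, 6 up and 14 down in the second and 12 up and 27 down in the last. Those up in the second and the last include Hspb7, Hspa1a and Dnajb3, which met the read minimum only with the Smad7-labelled libraries. Shares of all genes at this 2-fold cut-off were not counted, so these numbers set no members apart.

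The calls were also counted by level. Of the 33 with a mean of at least 100 CPM over the 6 libraries, 2 rose (Hspb1 and Pdia4) and 25 fell in knockout cells, against 27.8% higher and 59.3% lower among all 2538 genes of that level. Against the knockout 31 of the 33 fell in the Smad7-labelled libraries and the others did not pass, against 71.1% lower among such genes. Against wild type 1 (Hspb1) rose and 31 fell, against 20.8% and 73.4%. The medians of these members were −0.31, −0.87 and −1.26, and those of all genes at that level −0.18, −0.41 and −0.60 on the log2 scale, so the median of abundant genes in general was also below 0. The 49 members under 100 CPM had 19 called higher and 11 lower in the first comparison, 19 and 19 in the second and 23 and 20 in the last. Of all 14804 genes under 100 CPM 35.6%, 40.5% and 46.9% were higher and 28.8%, 31.0% and 32.9% lower in these comparisons. The mean level ranged from 0.588 CPM for Hspb7 to 6934 CPM for Hsp90ab1.

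**Figure D1:**
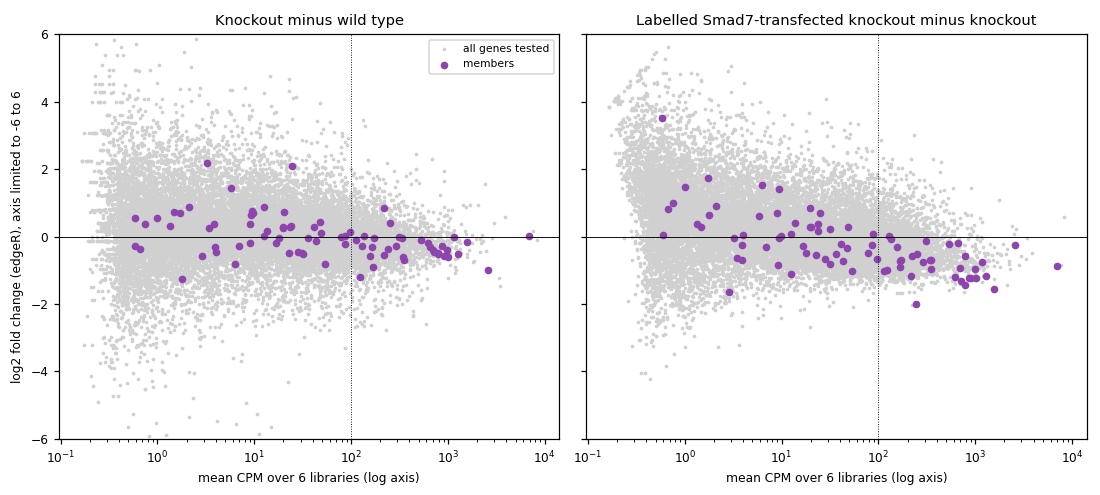
Each point is a gene, with its mean CPM over 6 libraries on a log x axis and its log2 fold change on the y axis, for the knockout against wild type (left) and the Smad7-labelled libraries against the knockout (right). Grey points are the genes tested, purple points the 82 members, and the dotted line marks 100 CPM; right of it 25 of 33 members fell in the left panel and 31 of 33 in the right.

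**Figure D2:**
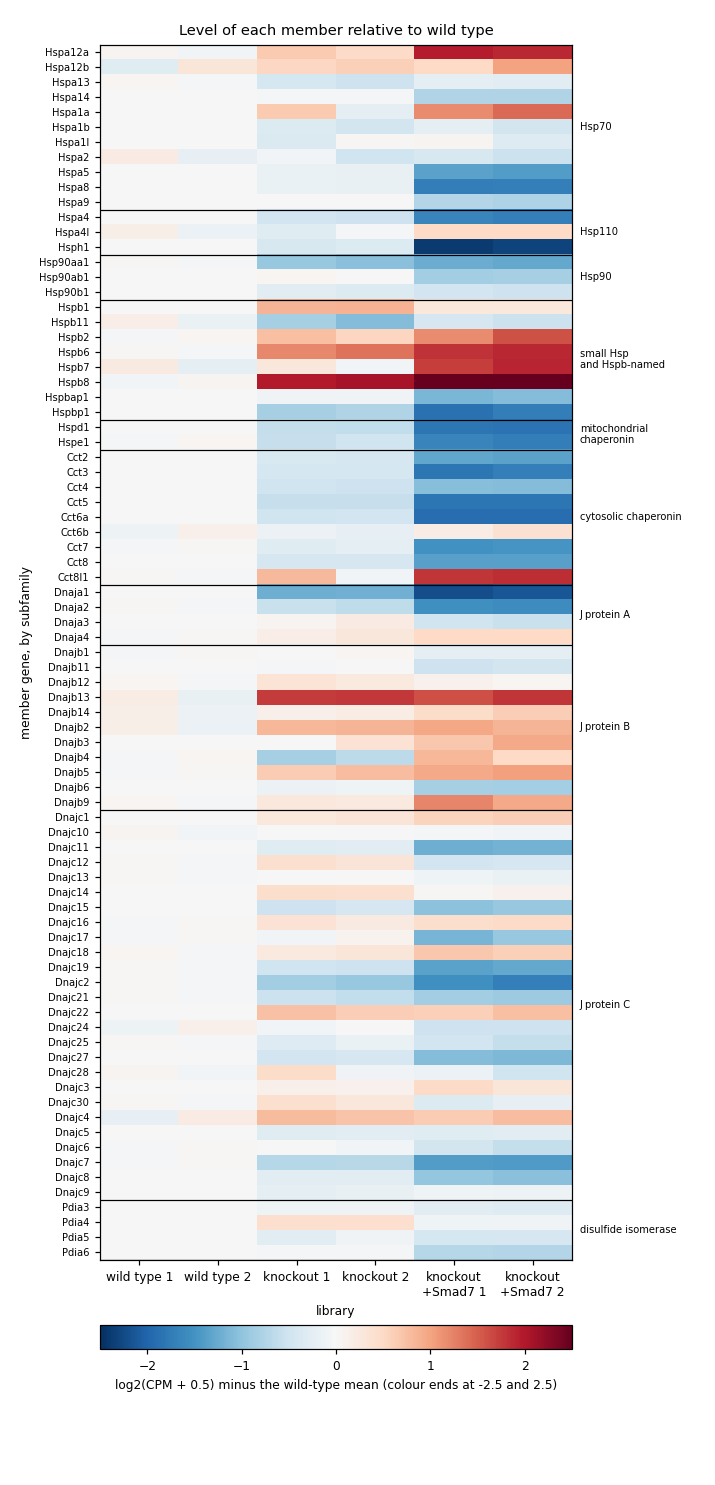
Heat map of log2(CPM + 0.5) minus the wild-type mean, with a row for each of the 81 members with a single gene model, grouped by subfamily, and a column for each of the 6 libraries; the colour scale is capped at both ends. The 2 libraries of a group look alike in each row of an abundant gene, and the Cct, mitochondrial chaperonin and Hsp90 rows turn blue toward the Smad7-labelled libraries while the Hspb8 row turns red.

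The 11 Hsp70 genes went both ways, as genes in general did, and the abundant Hspa8, Hspa5 and Hspa9 fell in the Smad7-labelled libraries. Of the 11, 2 rose and 4 fell in knockout cells, 3 rose and 4 fell in the Smad7-labelled libraries against them, and 3 and 7 against wild type. The shares over all genes were 34.5%, 37.8% and 43.1% higher and 33.3%, 36.8% and 38.8% lower. Both groups of 3 include Hspa1a, which met the read minimum only with the Smad7-labelled libraries. Hspa8, the constitutive cytosolic Hsp70 (chr9:40800984-40810087, forward strand), had 2141 and 2143 CPM in wild-type cells, 1908 and 1895 in knockout cells, then 645 and 654 in the Smad7-labelled libraries. The groups were separate, with the knockout slightly and the Smad7-labelled libraries far below wild type. The fall was small in knockout cells (log2 fold −0.17 ± 0.033 SE, adjusted p = 2.2e-06; −0.028 and not past the threshold with library size scaling). Hspa8 fell again in the Smad7-labelled libraries (log2 fold −1.55 ± 0.035 SE, adjusted p = 4.0e-84). Hspa9, the Hsp70 of the mitochondrial matrix, had 1348 and 1342 CPM in wild-type cells, 1353 and 1329.9 in knockout cells, then 805 and 788 in the Smad7-labelled libraries. It did not pass in knockout cells (log2 fold −0.0039 ± 0.034 SE, adjusted p = 0.93), where library size scaling gave 0.14 and a call, and it fell in the Smad7-labelled libraries against them (log2 fold −0.75 ± 0.034 SE, adjusted p = 9.3e-47). Hspa14, which works on ribosomes with Dnajc2, had 198 and 203 CPM in wild-type cells, 193 and 194 in knockout cells, then 119 and 119.6 in the Smad7-labelled libraries. Both Smad7-labelled libraries were below the other 4, and Hspa14 fell against the knockout (log2 fold −0.69 ± 0.040 SE, adjusted p = 3.2e-36).

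The stress-inducible Hsp70 pair had few counted reads. Hspa1a, whose promoter is printed above, had 8 and 8 reads in wild-type cells, 20 and 6 in knockout cells, then 26 and 38 in the Smad7-labelled libraries. Those few reads were higher in the Smad7-labelled libraries than in the knockout (log2 fold 1.47 ± 0.34 SE). Hspa1a met the read minimum only with these libraries, so its rise is a description only. Hspa1b, the near-identical neighbour of Hspa1a, had 82 and 86 reads in wild-type cells, 73 and 64 in knockout cells, then 63 and 62 in the Smad7-labelled libraries. It was lower in knockout cells (log2 fold −0.44 ± 0.17 SE, adjusted p = 0.018), a call that was lost without either wild-type library (−0.44 and −0.45), without knockout replicate 2 (−0.36), with DESeq2 (−0.50) and with library size scaling (−0.30). Reads that match both copies can be split between them or left out by the counting, so the level of each, and of the pair, is uncertain. Hspa2, a testis-rich form, had 5.43 and 3.97 CPM in wild-type cells, 4.43 and 3.16 in knockout cells, then 3.42 and 3.03 in the Smad7-labelled libraries. It passed in neither the first (log2 fold −0.30 ± 0.18 SE, adjusted p = 0.12) nor the second comparison (log2 fold −0.25 ± 0.19 SE, adjusted p = 0.24). Hspa12a, a distant relative of Hsp70 chosen for mention after its values were seen, was scarce and rose in both steps, with 4.42 and 3.97 CPM in wild-type cells, 6.93 and 6.05 in knockout cells, then 17.8 and 16.9 in the Smad7-labelled libraries. Its log2 fold was 0.63 in knockout cells (adjusted p = 1.4e-04) and 1.42 in the Smad7-labelled libraries against them (adjusted p = 4.2e-24).

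The Hsp110 proteins, which release ADP from Hsp70, held the greatest fall of all members. Hsph1 had 364 and 372 CPM in wild-type cells, 281 and 291 in knockout cells, then 69.2 and 73.1 in the Smad7-labelled libraries. All Smad7-labelled values were below all others, and Hsph1 fell in knockout cells (log2 fold −0.36 ± 0.036 SE, adjusted p = 8.9e-18) and again in the Smad7-labelled libraries (log2 fold −2.004 ± 0.043 SE, adjusted p = 6.5e-87). That second value was the lowest of the 82 members. Hspa4, the most abundant of the 3, had 1923 and 1877 CPM in wild-type cells, 1366 and 1319.7 in knockout cells, then 607 and 583 in the Smad7-labelled libraries. Both steps down passed the test (log2 fold −0.50 ± 0.034 SE, adjusted p = 1.1e-29 and then log2 fold −1.18 ± 0.035 SE, adjusted p = 2.4e-68). Hspa4l went the other way from a low level, with 9.02 and 7.21 CPM in wild-type cells, 6.42 and 7.78 in knockout cells, then 11.7 and 11.6 in the Smad7-labelled libraries: its rise in the Smad7-labelled libraries against the knockout (log2 fold 0.71 ± 0.12 SE, adjusted p = 9.0e-08) turned to −0.21 with offsets for GC content and length. The ratio of Hsph1 to Hspa8, in RPKM (TMM-scaled CPM per kilobase of exon), was 0.101 and 0.103 in wild-type cells, 0.0870 and 0.0910 in knockout cells and 0.0635 and 0.0661 in the Smad7-labelled libraries. The groups did not overlap, and the ratio was given no test. Its pair of genes, like those of the RPKM ratios below, was chosen after values were seen.

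Of the 2 cytosolic Hsp90 genes, Hsp90aa1 was already called lower in knockout cells and Hsp90ab1 only in the Smad7-labelled libraries. Hsp90aa1, the inducible form (chr12:110690605-110702728, reverse strand), had 4126 and 3955 CPM in wild-type cells, 2093 and 1950.4 in knockout cells, then 1719 and 1656 in the Smad7-labelled libraries. A fall in knockout cells passed (log2 fold −0.999 ± 0.034 SE, adjusted p = 2.6e-58), and the further fall in the Smad7-labelled libraries (log2 fold −0.26 ± 0.034 SE, adjusted p = 1.4e-11) went to −0.013 and past no threshold with library size scaling. Hsp90ab1, the constitutive form and the most abundant member (chr17:45567775-45573271, reverse strand), had 8148 and 7999 CPM in wild-type cells, 8338 and 8112 in knockout cells, then 4446 and 4559.8 in the Smad7-labelled libraries. It did not pass in knockout cells (log2 fold 0.027 ± 0.033 SE, adjusted p = 0.48), where GC and length offsets gave −0.16 and a call, and it fell in the Smad7-labelled libraries against the knockout (log2 fold −0.87 ± 0.033 SE, adjusted p = 2.5e-55). Per length, the RPKM ratio of Hsp90aa1 to Hsp90ab1 was 0.386 and 0.377 in wild-type cells, 0.191 and 0.183 in knockout cells and 0.295 and 0.277 in the Smad7-labelled libraries. The 3 groups did not overlap, and the ratio was lowest in the knockout.

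Most listed cochaperones and folding partners fell as well. The list holds partners of Hsp90 and Hsp70 and also genes of the cytosolic chaperonin and prefoldin, Tcp1 and Pfdn4 among them, described below. Of 33 cochaperones and folding partners on a list that holds no member, 26 fell in knockout cells and the other 7 did not pass. Against the knockout the Smad7-labelled libraries had 26 lower and 6 higher, and against wild type 29 fell and 4 did not pass, with list medians of −0.32, −0.63 and −0.91. Among all genes 34.5%, 37.8% and 43.1% were higher. The shares lower were 33.3%, 36.8% and 38.8% among all genes, and 59.3%, 71.1% and 73.4% among those with at least 100 CPM. Ahsa1, which stimulates the ATPase of Hsp90, had 301 and 308 CPM in wild-type cells, 235 and 238 in knockout cells, then 75.2 and 75.6 in the Smad7-labelled libraries. Both steps down passed the test (log2 fold −0.37 and −1.65). Fkbp4, a peptidyl-prolyl isomerase on Hsp90, had 860.0 and 862 CPM in wild-type cells, 680.4 and 695 in knockout cells, then 239 and 240.5 in the Smad7-labelled libraries. It fell by log2 folds of −0.32 and −1.52. Stip1, the bridge between Hsp70 and Hsp90, had 684 and 670.2 CPM in wild-type cells, 614 and 629.8 in knockout cells, then 237 and 252 in the Smad7-labelled libraries. Its fall in the Smad7-labelled libraries was large (log2 fold −1.35 ± 0.037 SE, adjusted p = 9.7e-73), while the small one in knockout cells (log2 fold −0.12 ± 0.035 SE, adjusted p = 0.0011) turned to 0.021 with library size scaling. Ppid had 338 and 334 CPM in wild-type cells, 195 and 189 in knockout cells, then 95.1 and 94.9 in the Smad7-labelled libraries. The groups were again separate in descending order (log2 fold −0.81 and −1.01). Bag2, which binds Hsp70 with the ubiquitin ligase Stub1, was 1 of the 6 that were higher in the second step. It had 5.90 and 7.66 CPM in wild-type cells, 2.85 and 2.89 in knockout cells, then 4.78 and 4.76 in the Smad7-labelled libraries. It was lower in knockout cells (log2 fold −1.24) and rose after (log2 fold 0.73). Chordc1, an Hsp90 partner, had 179 and 163 CPM in wild-type cells, 97.9 and 90.3 in knockout cells, then 106 and 101 in the Smad7-labelled libraries. Its fall in knockout cells (log2 fold −0.86 ± 0.044 SE, adjusted p = 2.3e-38) passed no threshold with GC and length offsets, which also turned its small second rise (log2 fold 0.13) to −1.15.

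Of 14 members that are textbook targets of Hsf1, 2 rose and 8 fell in knockout cells, 3 rose and 10 fell in the Smad7-labelled libraries against them, and 4 rose and 10 fell against wild type, with medians of −0.28, −0.73 and −1.05. Of all genes 34.5%, 37.8% and 43.1% were higher. The shares lower were 33.3%, 36.8% and 38.8% of all genes, and 59.3%, 71.1% and 73.4% of those with at least 100 CPM. The 2 that rose in knockout cells were Hspb1 and Hspb8, described below. Hspa1a, which met the read minimum only with the Smad7-labelled libraries, is among those counted as higher in these libraries. Hsf1 itself had 58.5 and 62.8 CPM in wild-type cells, 45.3 and 50.4 in knockout cells, then 26.0 and 31.5 in the Smad7-labelled libraries. It fell in knockout cells (log2 fold −0.34 ± 0.059 SE, adjusted p = 2.4e-07) and in the Smad7-labelled libraries against them (log2 fold −0.72 ± 0.068 SE, adjusted p = 3.8e-17). Hsf4, a heat shock factor known from the lens, rose in both steps, with 0.944 and 0.783 CPM in wild-type cells, 2.85 and 2.73 in knockout cells, then 17.6 and 14.4 in the Smad7-labelled libraries. Its log2 folds were 1.69 (adjusted p = 2.7e-08) and 2.504 (adjusted p = 4.7e-37). Hsf2 had 66.3 and 67.4 CPM in wild-type cells, 56.8 and 53.5 in knockout cells, then 45.3 and 40.5 in the Smad7-labelled libraries, and its fall in knockout cells (log2 fold −0.28) turned to 0.56 with GC and length offsets. Hsbp1, which binds Hsf1, had 98.3 and 104 CPM in wild-type cells, 118 and 115 in knockout cells, then 82.1 and 82.4 in the Smad7-labelled libraries. It rose in knockout cells (log2 fold 0.21) and fell after (log2 fold −0.51).

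**Figure D3:**
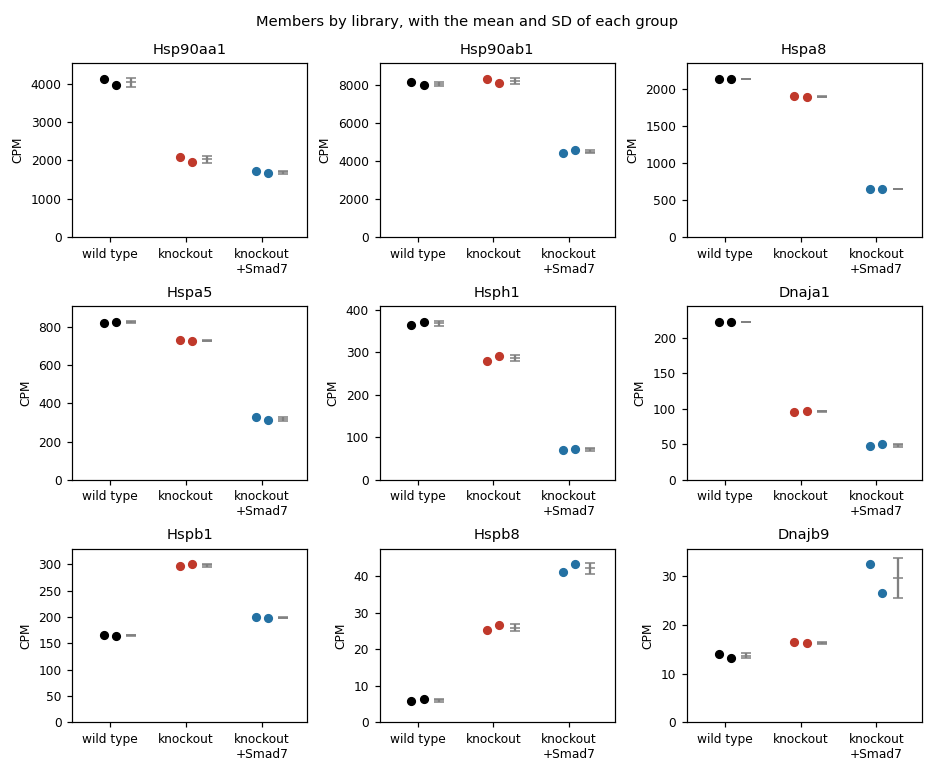
CPM of 9 members on linear axes from 0, with a point for each library (2 a group) and the group mean with its SD beside them in grey. Hsp90aa1 and Dnaja1 are already low in knockout cells, Hsp90ab1 and Hspa8 are low mainly in the Smad7-labelled libraries, Hspb1 is highest in knockout cells, and Hspb8 and Dnajb9 are highest in the Smad7-labelled libraries.

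J proteins choose where Hsp70 works, and the 41 members of this kind did not move as a block. Of 4 in class A, the closest relatives of bacterial DnaJ, 1 rose and 2 fell in knockout cells, and 3 fell in the Smad7-labelled libraries against the knockout. Of all genes 34.5% were higher and 33.3% lower in knockout cells, and 36.8% were lower in the second step. Dnaja1 and Dnaja2 serve the cytosolic Hsp70. Dnaja1 (chr4:40722150-40737149, forward strand) had 222 and 223 CPM in wild-type cells, 95.7 and 96.7 in knockout cells, then 47.2 and 50.2 in the Smad7-labelled libraries. It dropped at each step with no overlap between groups (log2 fold −1.21 ± 0.041 SE, adjusted p = 9.0e-62, and then log2 fold −0.98 ± 0.050 SE, adjusted p = 1.7e-41). Its exons share 608 bases with Smu1 on the opposite strand, and the sources used here do not state the strand setting of the counting. Dnaja2 had 531 and 508 CPM in wild-type cells, 352 and 335 in knockout cells, then 179 and 175 in the Smad7-labelled libraries. Both steps down passed the test (log2 fold −0.60 ± 0.036 SE, adjusted p = 2.0e-34 and log2 fold −0.96 ± 0.038 SE, adjusted p = 5.7e-53). Dnaja3, the mitochondrial member, had 104 and 103 CPM in wild-type cells, 109 and 119 in knockout cells, then 72.7 and 69.9 in the Smad7-labelled libraries. Its rise in knockout cells (log2 fold 0.14 ± 0.045 SE, adjusted p = 0.0043) turned to −0.044 with GC and length offsets. It lost its call with RLE scaling (0.082), with DESeq2 (0.082) and without knockout replicate 2 (0.086), and it fell in the Smad7-labelled libraries (log2 fold −0.68 ± 0.047 SE, adjusted p = 1.5e-28).

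Class B went both ways, as genes in general did. Of 11, 5 rose and 2 fell in knockout cells, 5 rose and 4 fell in the Smad7-labelled libraries against them, and 7 rose and 3 fell against wild type. Over all genes 34.5%, 37.8% and 43.1% were higher and 33.3%, 36.8% and 38.8% lower. The rises in the Smad7-labelled libraries include Dnajb3, which met the read minimum only with these libraries. Dnajb1, the stress-inducible Hsp40 and the most abundant of the class, had 88.1 and 92.5 CPM in wild-type cells, 90.0 and 93.3 in knockout cells, then 77.0 and 76.5 in the Smad7-labelled libraries, so wild type and knockout overlapped (log2 fold 0.021 ± 0.046 SE, adjusted p = 0.71; GC and length offsets gave −0.20 and a call). Its fall in the Smad7-labelled libraries (log2 fold −0.25 ± 0.048 SE, adjusted p = 7.9e-07) went to −0.0068 with library size scaling and −0.090 with the offsets, past no threshold in either. The RPKM ratio of Dnaja1 to Dnajb1 went from 0.938 and 0.895 in wild-type cells to 0.395 and 0.385 in knockout cells and 0.228 and 0.244 in the Smad7-labelled libraries. No 2 of the 3 groups overlapped in this ratio.

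Dnajb2, a form known from neurons, had 8.79 and 7.16 CPM in wild-type cells, 14.4 and 14.7 in knockout cells, then 16.1 and 14.7 in the Smad7-labelled libraries; the knockout was above wild type (log2 fold 0.87 ± 0.11 SE, adjusted p = 5.2e-12) while the step to the Smad7-labelled libraries did not pass (log2 fold 0.077). Dnajb5 had 12.6 and 13.1 CPM in wild-type cells, 20.3 and 22.2 in knockout cells, then 25.2 and 26.7 in the Smad7-labelled libraries. It rose in knockout cells (log2 fold 0.72 ± 0.091 SE, adjusted p = 2.2e-12). Its smaller second rise (log2 fold 0.29 ± 0.079 SE, adjusted p = 6.6e-04) lost its call without knockout replicate 1 (0.21) and in the test against a 1.2-fold minimum. Dnajb4 reversed between steps: it had 5.66 and 6.15 CPM in wild-type cells, 3.11 and 3.58 in knockout cells, then 10.9 and 8.49 in the Smad7-labelled libraries. It showed a fall in knockout cells (log2 fold −0.82 ± 0.17 SE, adjusted p = 6.7e-06) and a rise past wild type in the Smad7-labelled libraries (log2 fold 1.52 ± 0.15 SE, adjusted p = 1.4e-17). Dnajb6, an inhibitor of aggregation whose promoter holds the 3-unit heat shock element, had 52.8 and 52.7 CPM in wild-type cells, 47.4 and 49.2 in knockout cells, then 29.5 and 28.9 in the Smad7-labelled libraries. It fell in the Smad7-labelled libraries against the knockout (log2 fold −0.73 ± 0.064 SE, adjusted p = 4.1e-21), whereas its small fall in knockout cells (log2 fold −0.13 ± 0.057 SE, adjusted p = 0.040) lost its call without any 1 of the 4 libraries and turned to 0.016 with library size scaling. Dnajb13, known from the radial spokes of cilia, had the greatest rise of a member in knockout cells, with 1.18 and 0.783 CPM in wild-type cells, 4.43 and 4.47 in knockout cells, then 4.001 and 4.54 in the Smad7-labelled libraries. Knockout exceeded wild type in every library (log2 fold 2.18 ± 0.24 SE, adjusted p = 4.2e-15). Its exons share 305 bases with Ucp2 on the opposite strand, which had 13982 reads over all libraries against 352 for Dnajb13, and without strand the reads of the 2 cannot be told apart.

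Class C, 26 proteins that share little beyond the J domain, had 8 members that rose and 10 that fell in knockout cells, 4 and 17 in the Smad7-labelled libraries against them, and 6 and 16 against wild type. Over all genes 34.5%, 37.8% and 43.1% were higher and 33.3%, 36.8% and 38.8% lower. Dnajc2 and Dnajc21, tied to ribosomes, fell in knockout cells. Dnajc2, which binds ribosomes with Hspa14, had 278 and 266 CPM in wild-type cells, 149 and 141 in knockout cells, then 93.5 and 82.9 in the Smad7-labelled libraries. It stepped down each time (log2 fold −0.91 ± 0.039 SE, adjusted p = 1.8e-45, then log2 fold −0.72 ± 0.044 SE, adjusted p = 9.9e-32). Dnajc21, which acts in the making of the large ribosomal subunit, had 214 and 206 CPM in wild-type cells, 145 and 137 in knockout cells, then 115 and 112 in the Smad7-labelled libraries. It fell in knockout cells (log2 fold −0.57 ± 0.039 SE, adjusted p = 2.3e-29). Its further fall (log2 fold −0.32) went to −0.067 with library size scaling and then passed no threshold. Dnajc7, which binds both Hsp70 and Hsp90, had 512 and 533 CPM in wild-type cells, 321 and 323 in knockout cells, then 199 and 196 in the Smad7-labelled libraries. It fell in each step (log2 fold −0.70 and −0.71). Dnajc8, a protein of the spliceosome, had 371 and 373 CPM in wild-type cells, 311 and 306 in knockout cells, then 190.2 and 179.8 in the Smad7-labelled libraries. Both falls passed (log2 fold −0.27 and −0.74). The difference between steps was not tested. Dnajc15, of mitochondria, had 30.7 and 30.5 CPM in wild-type cells, 21.3 and 22.7 in knockout cells, then 14.7 and 15.6 in the Smad7-labelled libraries. It too fell in both steps (log2 fold −0.48 and −0.53). Dnajc5, the cysteine string protein of secretory vesicles, had 147 and 145 CPM in wild-type cells, 118 and 121 in knockout cells, then 119 and 122 in the Smad7-labelled libraries. It fell in knockout cells (log2 fold −0.29 ± 0.041 SE, adjusted p = 3.5e-10), and the second step did not pass (log2 fold 0.011). Dnajc27 had 38.5 and 38.7 CPM in wild-type cells, 27.6 and 28.9 in knockout cells, then 17.9 and 17.5 in the Smad7-labelled libraries. The groups descended without overlap (log2 fold −0.45 and −0.67).

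The class C members given next were chosen after their values were seen. Dnajc4 had 5.49 and 7.44 CPM in wild-type cells, 11.4 and 10.8 in knockout cells, then 10.3 and 11.2 in the Smad7-labelled libraries. It rose in knockout cells (log2 fold 0.78 ± 0.13 SE, adjusted p = 1.9e-08). Dnajc22 had 6.84 and 6.82 CPM in wild-type cells, 11.6 and 10.8 in knockout cells, then 10.6 and 11.9 in the Smad7-labelled libraries. It rose in knockout cells (log2 fold 0.71 ± 0.12 SE, adjusted p = 9.3e-08), with a log2 fold of 0.011 in the second step that did not pass. Dnajc18 rose in both steps, from 19.5 and 17.9 CPM in wild-type cells through 22.3 and 23.3 in the knockout to 30.2 and 28.4 in the Smad7-labelled libraries, by edgeR's test, though its first rise was not called by DESeq2 (0.23). Dnajc17, of the spliceosome, had the greatest class C fall of the second step, with 15.0 and 15.4 CPM in wild-type cells, 14.5 and 16.1 in knockout cells, then 6.52 and 7.68 in the Smad7-labelled libraries. Only the Smad7-labelled libraries stood low (log2 fold −1.095 ± 0.11 SE, adjusted p = 1.5e-16). Dnajc10, the reductase of the endoplasmic reticulum, had 143 and 129.7 CPM in wild-type cells, 137 and 136 in knockout cells, then 131 and 129 in the Smad7-labelled libraries. It passed in none of the 3 comparisons (log2 fold 0.0058, −0.071 and −0.065), although library size scaling turned the last 2 to 0.18 and 0.33 and called them.

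**Figure D4:**
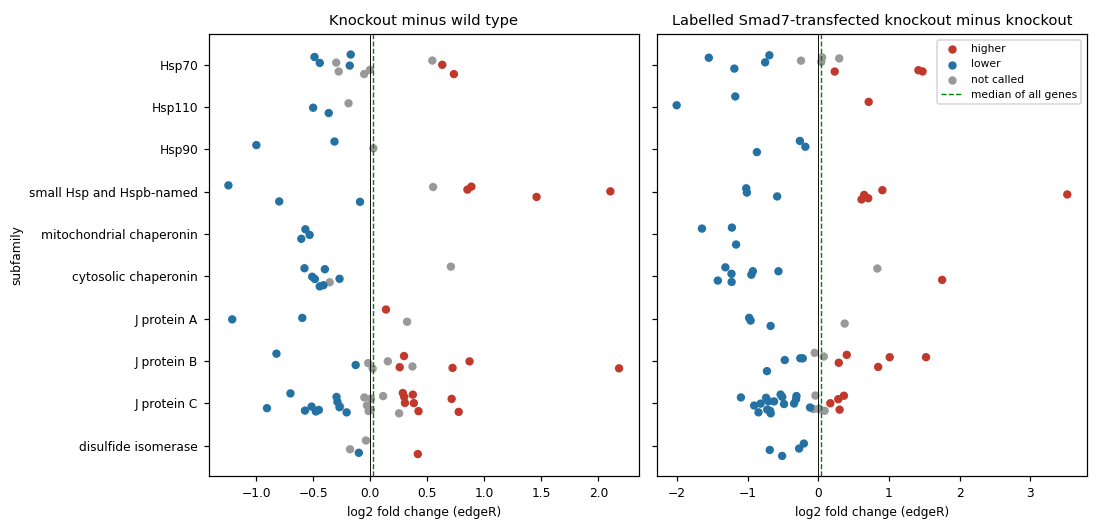
Log2 fold changes of the 82 members (1 point each, jittered vertically) by subfamily, for the knockout against wild type (left) and the Smad7-labelled libraries against the knockout (right); red points rose, blue points fell and grey points did not pass, and the green dashed line is the median of all genes tested. Both mitochondrial chaperonin and cytosolic chaperonin points lie mostly left of 0 in both panels, while the small Hsp and J protein B rows reach far to the right.

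Most small heat shock proteins were called higher in knockout cells. Of 8 genes with Hspb symbols, 5 are small heat shock proteins (Hspb1, Hspb2, Hspb6, Hspb7 and Hspb8), and 4 of these rose in knockout cells. There 34.5% of all genes, and 35.6% of those under 100 CPM, were higher. Among the 4, Hspb2 was not called by DESeq2. Over the 7 symbols other than Hspb7, 4 rose and 3 fell in the second step, against 37.8% and 36.8% of all genes. Those 4 include Hspb11, which is not a small heat shock protein. Hspb8, which partners Bag3 in clearing misfolded protein, had the greatest rise of these in knockout cells (chr5:116408491-116422864, reverse strand), with 5.72 and 6.26 CPM in wild-type cells, 25.1 and 26.6 in knockout cells, then 41.0 and 43.2 in the Smad7-labelled libraries. The groups ascended without overlap, 4.30-fold in knockout cells (log2 fold 2.11 ± 0.10 SE, adjusted p = 3.3e-43) and further in the Smad7-labelled libraries (log2 fold 0.71 ± 0.069 SE, adjusted p = 4.8e-18). Bag3, named after its values were seen, had 21.3 and 22.3 CPM in wild-type cells, 18.7 and 19.4 in knockout cells, then 21.04 and 22.3 in the Smad7-labelled libraries. Its log2 fold was −0.20 in knockout cells and 0.19 after. Hspb1 (Hsp25), the abundant small heat shock protein, whose promoter with its inverted GAA pairs is printed above, had 166 and 164 CPM in wild-type cells, 296 and 299.9 in knockout cells, then 199 and 198 in the Smad7-labelled libraries. It rose in knockout cells (log2 fold 0.85 ± 0.038 SE, adjusted p = 4.9e-48), fell in the Smad7-labelled libraries against them (log2 fold −0.58 ± 0.037 SE, adjusted p = 4.0e-32) and stayed above wild type there (log2 fold 0.27 ± 0.039 SE, adjusted p = 3.8e-10). The RPKM ratio of Hspb8 to Hspb1 was 0.0182 and 0.0202 in wild-type cells, 0.0449 and 0.0468 in knockout cells and 0.109 and 0.115 in the Smad7-labelled libraries.

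Hspb6 (Hsp20), known from muscle, had 2.24 and 2.12 CPM in wild-type cells, 5.66 and 6.36 in knockout cells, then 8.90 and 9.41 in the Smad7-labelled libraries. Both steps up passed the test (log2 fold 1.46 ± 0.18 SE, adjusted p = 2.3e-12 and log2 fold 0.61 ± 0.13 SE, adjusted p = 2.0e-05). Hspb2 had 16 and 19 reads in wild-type cells, 40 and 32 in knockout cells, then 45 and 74 in the Smad7-labelled libraries. It was called higher in knockout cells (log2 fold 0.89 ± 0.30 SE, adjusted p = 0.0059), a call lost without knockout replicate 1 (0.74) and with DESeq2 (0.84). Its exons overlap those of Cryab on the opposite strand over 252 bases. Hspb7 had 3 and 0 reads in wild-type cells, 4 and 1 in knockout cells, then 22 and 31 in the Smad7-labelled libraries, which is the pattern that let it into the list. The other Hspb symbols name different proteins. Hspbp1, a nucleotide exchange factor of Hsp70, fell with the Hsp70 partners, with 87.1 and 87.1 CPM in wild-type cells, 48.7 and 51.5 in knockout cells, then 23.5 and 26.0 in the Smad7-labelled libraries. It stepped down each time (log2 fold −0.80 ± 0.052 SE, adjusted p = 5.3e-31 and log2 fold −1.01 ± 0.065 SE, adjusted p = 1.5e-31). Hspbap1 fell in the second step, with 141 and 141 CPM in wild-type cells, 133 and 132 in knockout cells, then 63.9 and 66.5 in the Smad7-labelled libraries. The 2 Smad7-labelled libraries were lowest (log2 fold −1.02 ± 0.046 SE, adjusted p = 2.4e-47), and its first small fall (−0.090) turned to 0.054 with library size scaling and lost its call without any 1 of the 4 libraries. Hspb11 (Ift25, of cilia) had 2.95 and 2.24 CPM in wild-type cells, 1.22 and 0.947 in knockout cells, then 1.81 and 1.62 in the Smad7-labelled libraries. Its log2 folds were −1.24 and 0.65, the second of which was lost without knockout replicate 2 (0.46) or either Smad7-labelled library (0.56 and 0.73).

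The cytosolic chaperonin fell as a whole ring. It folds actin and tubulin in a double ring of 8 different subunits, 7 of which are members (Cct2, Cct3, Cct4, Cct5, Cct6a, Cct7 and Cct8), while the last, Tcp1, carries another symbol and was taken as a partner. All 8 fell in knockout cells and again in the Smad7-labelled libraries, where 59.3% and then 71.1% of genes with at least 100 CPM were lower. The fall of Cct7 in knockout cells (log2 fold −0.27) was not called in the test against a 1.2-fold minimum. The 7 members' log2 folds lay between −0.58 and −0.27 in knockout cells, between −1.42 and −0.56 in the Smad7-labelled libraries against them and between −1.91 and −1.07 against wild type. Summed over the 8 subunits the ring had 9202 and 9304 CPM in wild-type cells, 6754 and 6783 in knockout cells and 3219 and 3217 in the Smad7-labelled libraries. Tcp1 had 958 and 968 CPM in wild-type cells, 666 and 667 in knockout cells, then 329 and 308 in the Smad7-labelled libraries. It too stepped down each time (log2 fold −0.53 ± 0.035 SE, adjusted p = 4.8e-31 and log2 fold −1.06 ± 0.036 SE, adjusted p = 5.5e-61).

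Within the ring the second fall varied in size; differences between subunits were not tested. Cct6a had 1189 and 1211 CPM in wild-type cells, 851 and 862 in knockout cells, then 321 and 319 in the Smad7-labelled libraries, and its fall in the second step had the lowest log2 fold (log2 fold −1.42 ± 0.036 SE, adjusted p = 2.6e-77). Cct3 had 1044 and 1069 CPM in wild-type cells, 776 and 778 in knockout cells, then 302 and 322 in the Smad7-labelled libraries. It fell there (log2 fold −1.31 ± 0.037 SE, adjusted p = 2.9e-72). Cct4 had 1082 and 1089 CPM in wild-type cells, 764 and 761 in knockout cells, then 519.5 and 512 in the Smad7-labelled libraries. Its fall there was the smallest of the 7 members (log2 fold −0.56 ± 0.035 SE, adjusted p = 3.1e-33). Per length the subunits spanned a 3.07-fold and 2.998-fold range of RPKM in the wild-type libraries, 2.77-fold and 2.77-fold in knockout cells and 3.68-fold and 3.47-fold in the Smad7-labelled libraries. Cct3 was the lowest subunit in all 6 libraries, and Cct5 or Cct8 the highest. The testis form Cct6b had 9 and 13 reads in wild-type cells, 10 and 9 in knockout cells, then 12 and 18 in the Smad7-labelled libraries. It passed in no comparison. Cct8l1 had 11 and 11 reads in wild-type cells, 29 and 11 in knockout cells, then 53 and 66 in the Smad7-labelled libraries, and those few reads were called higher in the second step (log2 fold 1.75 ± 0.26 SE, adjusted p = 1.5e-09). Of the prefoldin subunits that hand nascent chains to the ring, Pfdn4 had 67.8 and 70.7 CPM in wild-type cells, 32.7 and 34.7 in knockout cells, then 22.1 and 21.4 in the Smad7-labelled libraries. It fell at both steps (log2 fold −1.04 and −0.63).

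**Figure D5:**
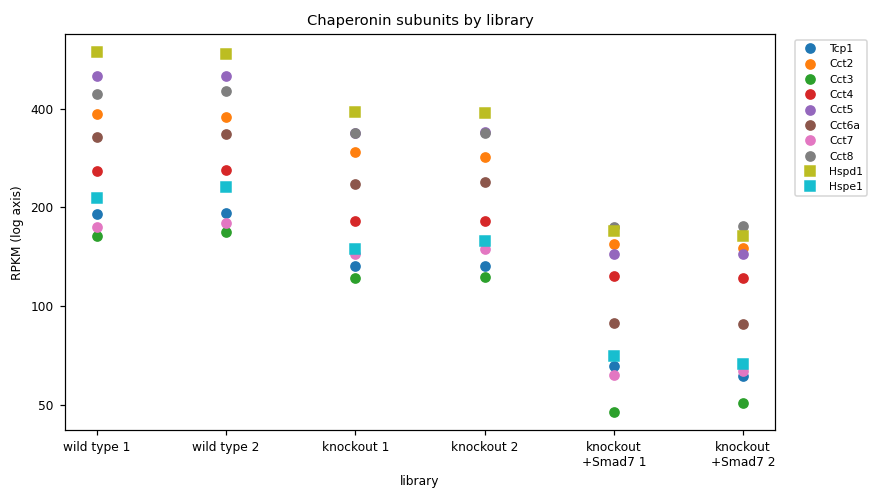
RPKM on a log axis for the 8 subunits of the cytosolic ring (circles) and for Hspd1 and Hspe1 of mitochondria (squares), with 1 column of points for each of the 6 libraries. Every subunit steps down from wild type to knockout and again to the Smad7-labelled libraries, and the 2 libraries of a group lie at like heights.

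Both genes of the mitochondrial chaperonin, Hspd1 and Hspe1, fell at each step. Hspd1 (Hsp60, chr1:55077835-55088243, reverse strand) forms the barrel and Hspe1 (Hsp10, chr1:55088132-55091307, forward strand) the lid, and the genes sit head to head, sharing 112 bases of exon. Hspd1 had 1566 and 1552 CPM in wild-type cells, 1028 and 1023 in knockout cells, then 448 and 431 in the Smad7-labelled libraries. It lost reads at each step (log2 fold −0.60 ± 0.034 SE, adjusted p = 3.4e-37 and log2 fold −1.22 ± 0.035 SE, adjusted p = 5.5e-70). Hspe1, with its overlapping 3-unit heat shock elements, had 314 and 339 CPM in wild-type cells, 219 and 232 in knockout cells, then 104 and 98.1 in the Smad7-labelled libraries. The lid gene lost reads at each step (log2 fold −0.53 ± 0.038 SE, adjusted p = 2.4e-27 and log2 fold −1.16 ± 0.042 SE, adjusted p = 3.1e-55). The RPKM ratio of Hspd1 to Hspe1 was 2.78 and 2.55 in wild-type cells, 2.61 and 2.46 in knockout cells and 2.41 and 2.45 in the Smad7-labelled libraries, a span far smaller than that of the levels.

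Of the 8 mitochondrial members, 2 rose and 5 fell in knockout cells, 8 of 8 fell in the Smad7-labelled libraries against them, and 7 fell against wild type, with medians of −0.39, −0.78 and −1.11. Beside these counts and those of the partners below, the shares lower were 33.3%, 36.8% and 38.8% over all genes and 59.3%, 71.1% and 73.4% over genes with at least 100 CPM. The shares higher over all genes were 34.5%, 37.8% and 43.1%. Dnajc19, which works with the import motor of the inner membrane, had 46.2 and 44.0 CPM in wild-type cells, 32.0 and 31.1 in knockout cells, then 17.5 and 18.3 in the Smad7-labelled libraries. It fell in the second step (log2 fold −0.82 ± 0.078 SE, adjusted p = 6.6e-19), while its fall in knockout cells (log2 fold −0.51) went to −0.0087 with GC and length offsets. Dnajc11, of the cristae organising complex, had 219 and 222 CPM in wild-type cells, 178 and 181 in knockout cells, then 94.4 and 96.8 in the Smad7-labelled libraries. Both falls passed (log2 fold −0.30 and −0.91). Of 13 mitochondrial partners outside the list, 4 rose and 3 fell in knockout cells, 3 rose and 10 fell in the Smad7-labelled libraries against them, and 2 and 10 against wild type. Grpel1, the nucleotide exchange factor of Hspa9, had 160.5 and 174 CPM in wild-type cells, 108 and 112 in knockout cells, then 56.7 and 58.1 in the Smad7-labelled libraries. Both falls passed (log2 fold −0.60 ± 0.042 SE, adjusted p = 1.4e-28 and log2 fold −0.94 ± 0.049 SE, adjusted p = 8.4e-41). Its relative Grpel2 had 44.3 and 42.2 CPM in wild-type cells, 62.3 and 61.3 in knockout cells, then 43.8 and 39.9 in the Smad7-labelled libraries. It was higher in knockout cells (log2 fold 0.52) and lower after (log2 fold −0.57). Yme1l1, a protease of the inner membrane, had 470.4 and 461 CPM in wild-type cells, 176 and 169.5 in knockout cells, then 268 and 254 in the Smad7-labelled libraries. It fell in knockout cells (log2 fold −1.43 ± 0.038 SE, adjusted p = 1.7e-75), and its partial return (log2 fold 0.59) turned to −0.30 with GC and length offsets. Trap1, the mitochondrial Hsp90, had 303 and 309 CPM in wild-type cells, 256 and 266 in knockout cells, then 172 and 168 in the Smad7-labelled libraries. It fell at both steps (log2 fold −0.23 and −0.62). The proteases Clpp and Afg3l2 fell in the second step (log2 fold −1.06 and −0.79) and did not pass in the first.

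The folding genes of the endoplasmic reticulum went both ways in the Smad7-labelled libraries, as genes in general did. Of 13 such members, 3 rose and 4 fell in knockout cells, 4 rose and 8 fell in the Smad7-labelled libraries against them, and 3 rose and 9 fell against wild type, with medians of −0.038, −0.20 and −0.31. Of all genes 34.5%, 37.8% and 43.1% were higher and 33.3%, 36.8% and 38.8% lower. Among genes with at least 100 CPM 59.3%, 71.1% and 73.4% were lower. Hspa5 (BiP), the Hsp70 of this compartment (chr2:34771970-34777547, forward strand), had 822 and 829.9 CPM in wild-type cells, 731 and 727 in knockout cells, then 327 and 313 in the Smad7-labelled libraries. It fell in the Smad7-labelled libraries against the knockout (log2 fold −1.19 ± 0.036 SE, adjusted p = 3.8e-67). Its small fall in knockout cells (log2 fold −0.18 ± 0.035 SE, adjusted p = 1.7e-06) went to −0.036 with library size scaling, past no threshold. Hsp90b1 (Grp94), whose promoter also holds the stress element, had 788 and 785 CPM in wild-type cells, 644 and 621 in knockout cells, then 563 and 551 in the Smad7-labelled libraries. Its fall in knockout cells (log2 fold −0.31 ± 0.035 SE, adjusted p = 4.4e-15) went to −0.020 with GC and length offsets, and the second, smaller fall (log2 fold −0.18 ± 0.035 SE, adjusted p = 1.3e-06) turned to 0.064 with library size scaling. The RPKM ratio of Hspa5 to Hsp90b1 was 0.995 and 1.01 in wild-type cells, 1.08 and 1.12 in knockout cells and 0.554 and 0.541 in the Smad7-labelled libraries, with the lowest ratios in the last group and no test of the ratio.

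Of the 4 members with the stress element, Hspa5, Hsp90b1 and Pdia6 were called lower in the second step and Dnajc3 higher. Dnajc3 (p58IPK), a J protein of the lumen, had 42.5 and 42.9 CPM in wild-type cells, 46.5 and 45.8 in knockout cells, then 59.9 and 52.8 in the Smad7-labelled libraries. It was called higher in the Smad7-labelled libraries (log2 fold 0.28 ± 0.058 SE, adjusted p = 6.2e-06), and GC and length offsets took this to 0.052, past no threshold. Pdia6 had 388 and 398 CPM in wild-type cells, 379 and 388 in knockout cells, then 239 and 237 in the Smad7-labelled libraries. It fell there (log2 fold −0.69 ± 0.037 SE, adjusted p = 2.5e-39). Among members without a match to the element, Dnajb9 (ERdj4) is a J protein that presents Hspa5 to the sensor Ern1. Dnajb9 had 14.0 and 13.3 CPM in wild-type cells, 16.4 and 16.2 in knockout cells, then 32.4 and 26.6 in the Smad7-labelled libraries. Its rise over the knockout passed (log2 fold 0.85 ± 0.083 SE, adjusted p = 1.1e-17). Its smaller rise in knockout cells (log2 fold 0.26 ± 0.097 SE, adjusted p = 0.014) lost its call without wild-type replicate 2 (0.22), without knockout replicate 1 (0.25) and with DESeq2 (0.20). Dnajb11 (ERdj3), which binds nascent chains, had 87.2 and 86.1 CPM in wild-type cells, 84.7 and 86.5 in knockout cells, then 60.3 and 62.7 in the Smad7-labelled libraries. It passed in the second step (log2 fold −0.47 ± 0.050 SE, adjusted p = 2.3e-16) and not in the first (log2 fold −0.018 ± 0.047 SE, adjusted p = 0.75). Hspa13 had 38.1 and 35.6 CPM in wild-type cells, 26.9 and 25.6 in knockout cells, then 31.2 and 30.5 in the Smad7-labelled libraries. Both its fall in knockout cells (log2 fold −0.49) and its rise after (log2 fold 0.23) changed sign with GC and length offsets (0.047 and −0.35); the rise was also not called without knockout replicate 2 (0.17).

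The disulfide isomerases make and shuffle disulfide bonds of secreted proteins. In knockout cells 1 of the 4 members rose and 1 fell, where 34.5% of all genes were higher and 33.3% lower. All 4 fell in the Smad7-labelled libraries against the knockout, but library size scaling turned Pdia3 to 0.043 and left Pdia5 at −0.024, past no threshold. In that comparison 36.8% of all genes and 71.1% of those with at least 100 CPM were lower. Pdia5 had 19.2 and 18.8 CPM in wild-type cells, 15.9 and 17.8 in knockout cells, then 13.8 and 14.0 in the Smad7-labelled libraries, and its fall was also lost with DESeq2, with GC and length offsets (−0.067) and without knockout replicate 2. Pdia4 had 234 and 229 CPM in wild-type cells, 310.0 and 309 in knockout cells, then 216 and 218 in the Smad7-labelled libraries. It rose in knockout cells (log2 fold 0.42 ± 0.037 SE, adjusted p = 5.8e-21) and fell after (log2 fold −0.51 ± 0.037 SE, adjusted p = 2.0e-27). Pdia3, which works on glycoproteins with calreticulin and calnexin, had 584 and 579 CPM in wild-type cells, 537 and 547 in knockout cells, then 476 and 465 in the Smad7-labelled libraries. Its small fall in knockout cells (log2 fold −0.10 ± 0.035 SE, adjusted p = 0.0080) lost its call without wild-type replicate 1 or knockout replicate 1, and library size scaling turned this fall to 0.044 and the second (log2 fold −0.20) to 0.043. P4hb, the founding disulfide isomerase with another symbol, had 856 and 865 CPM in wild-type cells, 570.0 and 577 in knockout cells, then 474 and 463 in the Smad7-labelled libraries. It fell in knockout cells (log2 fold −0.59 ± 0.035 SE, adjusted p = 6.5e-35).

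Sensors and partners of this compartment, a list of 27 genes with no member, had 13 that rose and 7 that fell in knockout cells, 6 and 14 in the Smad7-labelled libraries against them, and 10 and 13 against wild type. The shares over all genes were 34.5%, 37.8% and 43.1% higher and 33.3%, 36.8% and 38.8% lower. Xbp1, the transcription factor spliced by Ern1, had 68.8 and 70.2 CPM in wild-type cells, 106 and 116 in knockout cells, then 45.1 and 41.2 in the Smad7-labelled libraries. It was highest in knockout cells (log2 fold 0.68 ± 0.048 SE, adjusted p = 1.5e-27) and lowest in the Smad7-labelled libraries (log2 fold −1.37 ± 0.052 SE, adjusted p = 3.2e-54), and gene counts do not tell its spliced form. Herpud1, a membrane protein of the degradation pathway, had 16.7 and 14.7 CPM in wild-type cells, 29.4 and 31.6 in knockout cells, then 63.2 and 62.9 in the Smad7-labelled libraries. It rose at each step (log2 fold 0.96 ± 0.080 SE, adjusted p = 1.2e-22 and log2 fold 1.05 ± 0.062 SE, adjusted p = 2.1e-35). Ero1l, the oxidase that recharges the isomerases, had 54.1 and 51.9 CPM in wild-type cells, 101 and 97.3 in knockout cells, then 207 and 199.7 in the Smad7-labelled libraries. Its groups ascended without overlap (log2 fold 0.90 ± 0.049 SE, adjusted p = 1.3e-38 and log2 fold 1.04 ± 0.041 SE, adjusted p = 3.4e-53). Hyou1, the large Hsp70 relative that serves as exchange factor of Hspa5, had 314 and 309 CPM in wild-type cells, 235 and 229 in knockout cells, then 179 and 184 in the Smad7-labelled libraries. It fell at both steps (log2 fold −0.43 ± 0.037 SE, adjusted p = 1.2e-21 and log2 fold −0.35 ± 0.038 SE, adjusted p = 1.4e-15). Manf, a secreted protein that binds Hspa5, had 111 and 113 CPM in wild-type cells, 99.2 and 104 in knockout cells, then 44.7 and 46.7 in the Smad7-labelled libraries. It fell in the Smad7-labelled libraries (log2 fold −1.15 ± 0.051 SE, adjusted p = 6.2e-48), and its small fall before (log2 fold −0.13) turned to 0.0093 with library size scaling. Ero1l and Herpud1 thus rose in the second step while Hspa5, Pdia4, Pdia6, Hyou1 and Manf fell.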

How the data were processed

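Poly(A) RNA of E14 cells was sequenced from TruSeq libraries on an Illumina instrument, per the labels' protocols. The authors deposited raw read counts per gene symbol for 55292 features. STAR and featureCounts 1.6.3 and the builds mm10 and GRCm38 are named in the submitters' processing notes, with no role or order; the sources used here do not give the annotation or the strand setting. Of the table's columns, 6 match labelled samples and 2 match none and were not used, so the lncSmad7-transfected knockout was not analysed here.

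Genes were filtered with filterByExpr (17342 left, all 82 members among them), scaled with TMM and tested with edgeR's robust quasi-likelihood test (edgeR 4.0.16, limma 3.58.1, R 4.3.3) over 6 libraries in 3 groups with 3 residual degrees of freedom. P-values were adjusted over every tested gene by the method of Benjamini and Hochberg, and 0.05 was the threshold; log2 folds and SEs come from that fit, and the SE was taken from the fold and its F value. The common biological coefficient of variation was 2.47%. RPKM is TMM-scaled CPM per 1 kilobase of exon union, from GENCODE mouse release 21 (GRCm38), which gave 81 members a single model; the 33 members whose exons overlap another gene, 29 on the opposite strand, may share reads with it. The script was tested on simulated counts.

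Members and lists were chosen with earlier results of these data known, so their directions are no independent evidence. The gene pairs of the RPKM ratios were chosen after values were seen, so groups that do not overlap in a ratio are a description only. Named members were the most significant of each subfamily, those with the greatest folds, and a fixed set of well-known genes, except where the text says otherwise; Bag2, Dnajb11, Dnajc5, Dnajc15, Dnajc27, Hspa14, Hspb2, Smad7, lncSmad7, Col1a1 and Col3a1 fall outside that rule and were named with their values seen. Replicates differed by more than sampling noise (chi-square per degree of freedom 1.57, 1.72 and 1.89), and replicate numbers did not pair samples across groups (correlation of deviations 0.0057, 0.026 and 0.0053). Alternatives were RLE scaling, library size scaling, DESeq2 1.42.0, no low-count filter, a replicate block, a fit restricted to the groups compared, a test against a 1.2-fold minimum (glmTreat), offsets for GC content and length (mgcv 1.9.3, values for 97.8% of genes tested), the longest transcript as gene length, and each replicate left out.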

Additional observations from a re-analysis of the deposited data

How the results depend on the processing

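Replicate numbers did not pair the samples, and with a replicate block 21 members were higher and 36 lower in the knockout, 19 and 50 in the Smad7-labelled libraries against the knockout, and 24 and 51 against wild type, with no member's call changed. Leaving out each replicate in turn gave 17 to 22 higher and 32 to 34 lower members (median −0.11 to −0.074) in the first comparison, 16 to 17 and 47 to 50 (median −0.43 to −0.35) in the second and 22 to 23 and 46 to 51 (median −0.53 to −0.43) in the last. With RLE scaling the values became −0.15 (first comparison, member median) and −0.53 (last comparison, member median). With library size scaling the values became 33 (first comparison, members called higher), 0.049 (first comparison, member median), −0.081 (second comparison, member median) and −0.091 (last comparison, member median). With DESeq2 the values became 12 (first comparison, members called higher), −0.15 (first comparison, member median) and −0.53 (last comparison, member median). With no low-count filter the values became −0.082 (first comparison, member median) and −0.51 (last comparison, member median). With the 1.2-fold minimum the values became 12 (first comparison, members called higher) and 12 (second comparison, members called higher). With GC and length offsets the values became −0.13 (first comparison, member median) and −0.42 (last comparison, member median). With only the libraries compared the values became −0.50 (last comparison, member median). Among members and named partners with a call in either fit, signs turned only with library size scaling or GC and length offsets; signs that turned with no call in either fit are not listed. In the knockout against wild type these folds became, with library size scaling, Afg3l2 0.089, Clpp 0.13, Dnajb11 0.13, Dnajb6 0.016, Dnajc13 0.13, Hspa14 0.090, Hspa9 0.14, Hspbap1 0.054, Manf 0.0093, Pdia3 0.044, Pdia6 0.11 and Stip1 0.021. In the Smad7-labelled libraries against the knockout these folds became, with library size scaling, Dnajb12 0.027, Dnajc10 0.18, Dnajc13 0.13, Hsp90b1 0.064 and Pdia3 0.043. In the Smad7-labelled libraries against wild type these folds became, with library size scaling, Dnajb1 0.16, Dnajc10 0.33, Dnajc13 0.26, Dnajc5 0.12, Dnajc9 0.27, Grpel2 0.34, Hsbp1 0.096, Hspa13 0.13, Hspa1b 0.0021, Pdia3 0.087 and Pdia4 0.30. In the knockout against wild type these folds became, with GC and length offsets, Dnaja3 −0.044, Dnajb1 −0.20, Hsf2 0.56, Hsp90ab1 −0.16, Hspa13 0.047 and Hspa4l 0.39. In the Smad7-labelled libraries against the knockout these folds became, with GC and length offsets, Chordc1 −1.15, Dnajb14 −0.12, Dnajc4 0.31, Hspa13 −0.35, Hspa4l −0.21 and Yme1l1 −0.30. In the Smad7-labelled libraries against wild type these folds became, with GC and length offsets, Dnajc9 0.073 and Hsbp1 0.094. The cause of these changes was not tested. With 2 libraries a group and few reads, changes of scarce members such as Hspa1a, Hspb2 and Cct8l1 rest on few reads.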
